A study of Aedes aegypti with 8 samples.

Results

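The antimicrobial peptide genes of the mosquito midgut were examined in RNA-seq libraries of *Aedes aegypti*, the yellow fever mosquito. The set was defined by identifier and held 10 genes: the defensins AAEL003841, AAEL003832 and AAEL003857, the cecropins AAEL000598, AAEL000611, AAEL000625 and AAEL000627, the gambicin AAEL004522, the attacin AAEL003389 and the diptericin AAEL004833. Of these 10, 6 had a row among the 19712 identifiers of the count table. The 4 cecropin identifiers had no row and were not analysed here. The rule that defines the set uses no expression value, but the set was proposed with earlier results of these data known.

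Antimicrobial peptides are small secreted effectors of insect innate immunity that damage microbial membranes. Their genes are switched on by NF-kappaB transcription factors at the end of the Toll and IMD pathways, in the fat body, in hemocytes and in epithelia such as the gut. Defensins are cysteine-rich peptides known mainly for action against Gram-positive bacteria, whereas cecropins are helical peptides and attacins and diptericins are glycine-rich peptides known mainly for action against Gram-negative bacteria. Gambicin is a cysteine-rich peptide of mosquitoes. The midgut epithelium is where a blood meal, with its heme, and the gut bacteria are met.

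The study asked how the midgut transcriptome responds to heme, the iron-containing group of hemoglobin. Midguts of females 3 to 5 days old were cultured ex vivo for 35 h at 10 µM heme (n = 4) or at 0 µM heme (n = 4). In both groups the guts came from the Liverpool strain and were pooled within each replicate, and the Schneider's Drosophila medium contained penicillin-streptomycin, so antibacterial drugs were present in the 10 µM and the 0 µM cultures alike. Neither medium held FBS, the bovine serum of the regular growth medium. Before dissection the females of both groups had been fed a sugar solution that also held penicillin-streptomycin. PolyA RNA was sequenced. In such bulk samples, fewer cells of a type and less RNA per cell cannot be told apart.

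Total counts lay between 46027977 and 56947544 per library. TMM factors, which correct for composition, lay between 0.96 and 1.08 except in 10 µM heme replicate 1, where the factor was 0.848. This raised all scaled values of that library. The study described 10 µM heme replicate 2 and 0 µM heme replicate 1 as lying apart from their replicates. The digestive enzymes named for the gut epithelium were scarce, with 9 to 17 counts at 10 µM and 13 to 24 counts at 0 µM heme for the trypsin AAEL002273, and 6 to 11 and 2 to 9 counts for the alpha-amylase AAEL010536. They therefore did not mark the tissue. The muscle gene paramyosin (AAEL000485) was at 107 to 119 CPM (counts scaled to 1000000 per library) at 10 µM and 108 to 135 CPM at 0 µM heme, and its fold change did not pass the test (log2 fold change −0.09, adjusted p = 0.907, edgeR exact test). Markers of fat body and hemocytes were not checked.

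The fold changes of the tested genes in the set differed in sign and size, and differences between genes were not tested. A defensin, AAEL003832, was lower at 10 µM heme. A second defensin, AAEL003857, and gambicin had opposite fold changes of more than 0.9 in size on the log2 scale, but neither passed the test. The diptericin had nearly equal means, and the attacin and the third defensin were at or near the limit of counting.

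In numbers, 4 of the 6 genes with a row passed the low-count filter, and 1 of these 4 was called at an adjusted p under 0.05, with the lower level at 10 µM heme (edgeR exact test, two-sided, Benjamini-Hochberg over all genes tested). Across the 11095 genes tested, 514 were called, or 4.63%. At 10 µM heme, 2.42% of the tested genes were called lower and 2.22% were called higher, so that 47.9% of the calls were higher. With library totals in place of TMM, 32.1% of 442 calls were higher. The log2 fold changes of the 4 genes were −1.37, −1.16, 0.98 and 0.09. Their median of −0.53 lay between values of both signs and was near none of them. The median of all genes tested was 0.02, and 90% of genes lay between −0.56 and 0.58.

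Among the defensins, AAEL003832 had 45, 42, 36 and 45 counts in 10 µM heme replicates 1 to 4, against 70, 163, 92 and 125 counts in 0 µM heme replicates 1 to 4. On the TMM scale these were 0.990, 0.748, 0.742 and 0.739 CPM at 10 µM and 1.55, 2.83, 1.69 and 2.20 CPM at 0 µM heme. Every 10 µM library was below every 0 µM library, a separation that 10.2% of all genes tested also had in either direction. AAEL003832 averaged 0.805 ± 0.124 CPM at 10 µM and 2.07 ± 0.579 CPM at 0 µM heme (SD, n = 4 each). It was therefore 2.57-fold lower at 10 µM heme, with a log2 fold change of −1.37 (SE 0.22, adjusted p = 4.39e-05, edgeR exact test).

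The counts behind this gene were small. In the libraries nearest to each other across the groups, the 95% Poisson intervals, which cover counting error only, were 0.722 to 1.33 CPM in 10 µM heme replicate 1 and 1.21 to 1.95 CPM in 0 µM heme replicate 1. These intervals overlapped, whereas the group difference exceeded the spread between replicates. Without the pair of libraries that lay apart, AAEL003832 had a log2 fold change of −1.45 (adjusted p = 0.0002, edgeR exact test). Over all 18 alternative settings its log2 fold change stayed between −1.60 and −1.18 and its adjusted p between 2.30e-06 and 0.0181.

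The genes whose profile over the 8 libraries was most like that of AAEL003832 were AAEL024669, AAEL008336 and AAEL019868, for which no names were used here. Likeness was measured as the root mean square difference in centred log2 CPM, which was 0.20 for AAEL024669 and 0.21 for both AAEL008336 and AAEL019868. The spread of AAEL003832 itself on that scale was 0.70.

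The defensin AAEL003857 had 260, 207, 174 and 219 counts in 10 µM heme replicates 1 to 4, against 802, 511, 195 and 392 counts in 0 µM heme replicates 1 to 4. Scaled, these were 5.72, 3.69, 3.58 and 3.60 CPM at 10 µM and 17.7, 8.86, 3.58 and 6.90 CPM at 0 µM heme. The 10 µM libraries were close together and 3 of the 4 libraries at 0 µM heme lay above them all, but 0 µM heme replicate 3 fell among them. The mean was 4.15 ± 1.05 CPM at 10 µM and 9.27 ± 6.04 CPM at 0 µM heme (SD, n = 4 each), a coefficient of variation of 25.3% and 65.2%. The log2 fold change of −1.16 (SE 0.50) did not pass the test (p = 0.00599, adjusted p = 0.0976, edgeR exact test).

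Both ends of the 0 µM range of AAEL003857 bore on that outcome. Without 0 µM heme replicate 3 it was called (log2 fold change −1.43, adjusted p = 0.00208), and without 0 µM heme replicate 1 its log2 fold change was −0.64 (adjusted p = 0.313). When 0 µM heme replicate 1 and 10 µM heme replicate 2 were both left out, the log2 fold change was −0.59 (adjusted p = 0.516, edgeR exact test). AAEL003857 was also called with DESeq2 (adjusted p = 0.0443) and with library totals (adjusted p = 0.0399).

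The defensin AAEL003841 was near the limit of counting and did not pass the filter. It had 0, 0, 4 and 11 counts in 10 µM heme replicates 1 to 4 and 5, 6, 4 and 1 counts in 0 µM heme replicates 1 to 4. The groups overlapped and the sums were 15 and 16 counts. The 2 libraries at 0 allow a level of up to 0.0560 and 0.0541 CPM, taking 3 counts of the library total as the limit. In a fit without the filter, AAEL003841 had an adjusted p of 1 (edgeR exact test), and a difference was not detectable at this depth.

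The summed level of the 3 defensins was 6.71, 4.43, 4.41 and 4.51 CPM in 10 µM heme replicates 1 to 4, against 19.4, 11.8, 5.35 and 9.12 CPM in 0 µM heme replicates 1 to 4. AAEL003857 made up most of each sum, and 10 µM heme replicate 1 lay above 0 µM heme replicate 3. The sums averaged 5.02 ± 1.13 CPM at 10 µM and 11.4 ± 5.93 CPM at 0 µM heme (SD, n = 4 each), and no test was made on them. Without 0 µM heme replicate 1 the difference of the means was −3.73 CPM, against −6.39 CPM with all libraries. Defensins are paralogs, and alignments of low mapping quality had been removed, so reads shared by near-identical copies may be missing from these counts. No other identifier had counts within 2% of those of any of the 4 tested members in all libraries. That comparison used counts left after the removal, so it cannot show reads that were lost or shared in part.

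**Figure D1:**
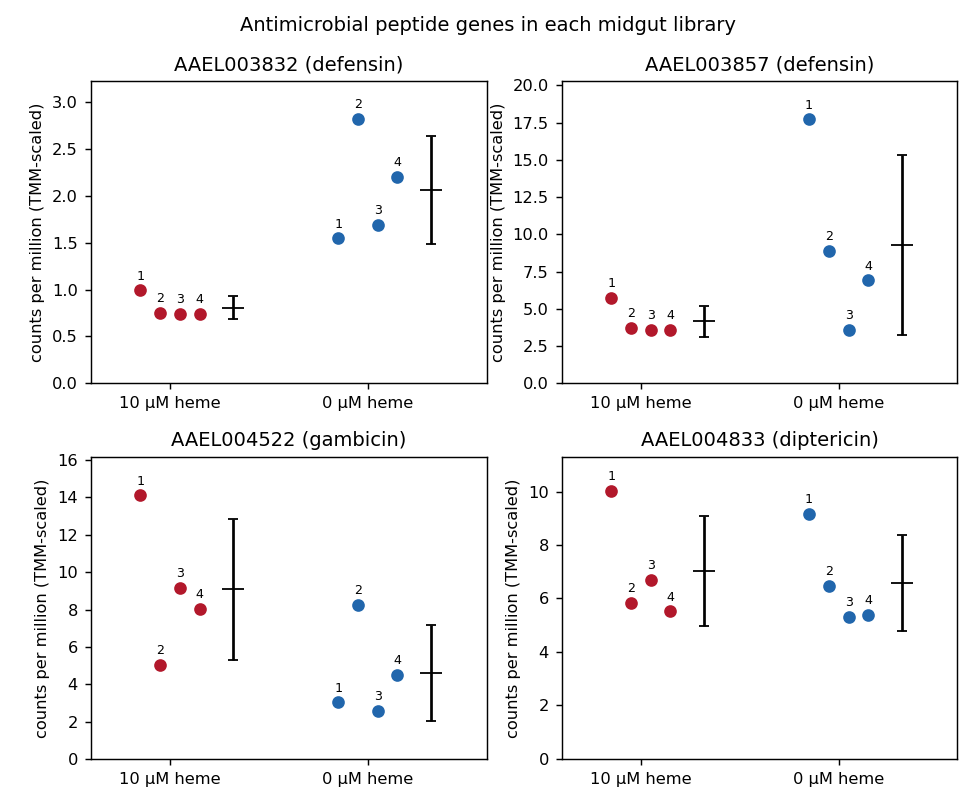
Levels of the 4 tested antimicrobial peptide genes in each midgut library, in TMM-scaled CPM on the y axis. Points are single libraries numbered by replicate (10 µM heme red, 0 µM heme blue), and bars are the mean with SD over 4 libraries. Only AAEL003832 has no overlap between groups, with 0.739 to 0.990 CPM at 10 µM and 1.55 to 2.83 CPM at 0 µM heme.

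Gambicin, AAEL004522, had a fold change of the opposite sign, which did not pass the test. It had 641, 283, 444 and 489 counts in 10 µM heme replicates 1 to 4, against 137, 475, 141 and 255 counts in 0 µM heme replicates 1 to 4. Scaled, the levels were 14.1, 5.04, 9.15 and 8.03 CPM at 10 µM and 3.03, 8.24, 2.59 and 4.49 CPM at 0 µM heme. Each 10 µM library was above 3 of the 4 libraries at 0 µM, whereas 0 µM heme replicate 2 lay above 10 µM heme replicates 2 and 4.

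Gambicin averaged 9.08 ± 3.77 CPM at 10 µM and 4.59 ± 2.56 CPM at 0 µM heme (SD, n = 4 each). Its log2 fold change of 0.98 (SE 0.48) did not pass the test (p = 0.0159, adjusted p = 0.185, edgeR exact test). Without 0 µM heme replicate 2 gambicin was called (log2 fold change 1.43, adjusted p = 0.00549, edgeR exact test). Without replicate 1 of both groups its log2 fold change was 0.53 (adjusted p = 0.698), and without the pair of libraries that lay apart it was 1.03 (adjusted p = 0.191).

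The attacin AAEL003389 was practically without reads. It had 1, 0, 1 and 0 counts in 10 µM heme replicates 1 to 4 and 0 counts in all 4 libraries at 0 µM heme. A library at 0 allows a level of up to 0.0527 to 0.0652 CPM, depending on its depth, so no fold change is given. Attacin is a classical target of the IMD pathway in *Drosophila*.

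The diptericin AAEL004833, also an IMD target in *Drosophila*, had 455, 328, 325 and 336 counts in 10 µM heme replicates 1 to 4, against 415, 373, 289 and 306 counts in 0 µM heme replicates 1 to 4. Scaled, it was at 10.0, 5.84, 6.70 and 5.52 CPM at 10 µM and 9.17, 6.47, 5.31 and 5.38 CPM at 0 µM heme. Replicate 1 was the highest library in both groups and the other 6 libraries lay close together. The means were 7.02 ± 2.06 CPM at 10 µM and 6.58 ± 1.80 CPM at 0 µM heme (SD, n = 4 each). The log2 fold change of 0.09 (SE 0.27) did not pass the test (adjusted p = 0.979, edgeR exact test), and its sign turned with library totals (−0.02) and without 10 µM heme replicate 1 (−0.14).

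Summed over the 6 genes with a row, the level was 30.9, 15.3, 20.3 and 18.1 CPM in 10 µM heme replicates 1 to 4, against 31.6, 26.5, 13.3 and 19.0 CPM in 0 µM heme replicates 1 to 4. The ranges lay largely over each other. The sum averaged 21.1 ± 6.80 CPM at 10 µM and 22.6 ± 8.08 CPM at 0 µM heme (SD, n = 4 each). The difference of −1.45 CPM was smaller than the SD of either group. It changed sign without 0 µM heme replicate 1 (1.55 CPM), without 10 µM heme replicate 2 (0.484 CPM) and without both (3.48 CPM).

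**Figure D2:**
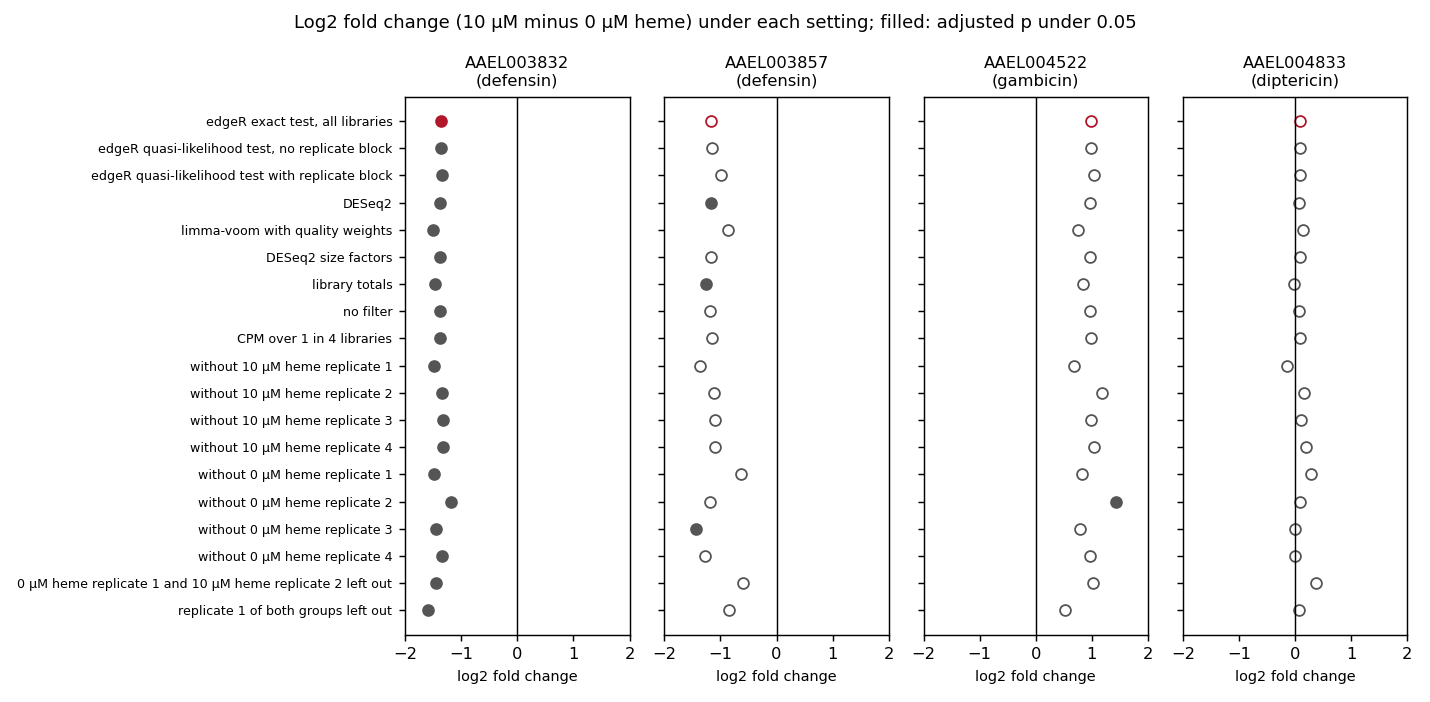
Log2 fold changes (10 µM minus 0 µM heme, x axis) of the 4 tested antimicrobial peptide genes under each setting named at the left, with the edgeR exact test on all libraries in red at the top. Filled points have an adjusted p under 0.05. AAEL003832 is filled throughout, between −1.60 and −1.18, AAEL003857 under 3 alternatives and gambicin under 1, and the diptericin lies on both sides of 0.

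Because 10 µM heme replicate 1 was the highest library of its group for all 4 tested genes on the TMM scale, ratios of raw counts within a library were also formed, which need no scaling. A ratio depends on the lengths of both genes and is compared only between libraries. The 6 ratios among the 4 tested genes were chosen after the values were seen and were not tested.

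The ratio of gambicin to the defensin AAEL003832 was 14.2, 6.74, 12.3 and 10.9 in 10 µM heme replicates 1 to 4, against 1.96, 2.91, 1.53 and 2.04 in 0 µM heme replicates 1 to 4. The groups did not overlap, but 80.4% of the other 11094 genes tested also had a count ratio to AAEL003832 that separated the groups, so the separation was not particular to gambicin. The ratio of gambicin to the defensin AAEL003857 was 2.47, 1.37, 2.55 and 2.23 at 10 µM heme, against 0.171, 0.930, 0.723 and 0.651 at 0 µM heme. This ratio did not overlap between the groups either, so gambicin reads outnumbered AAEL003857 reads in each 10 µM library and were fewer in each 0 µM library. Of the other 11094 genes tested, 8.92% also had a non-overlapping count ratio to AAEL003857.

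Set against the diptericin, AAEL003857 was at 0.571, 0.631, 0.535 and 0.652 in 10 µM heme replicates 1 to 4, against 1.93, 1.37, 0.675 and 1.28 in 0 µM heme replicates 1 to 4. These groups did not overlap, although 0 µM heme replicate 3 lay just above the highest 10 µM library. The ratio of AAEL003832 to the diptericin averaged 0.118 ± 0.0160 at 10 µM and 0.333 ± 0.121 at 0 µM heme (SD, n = 4 each), again without overlap, as was common for ratios to AAEL003832. Among the other 11094 genes tested, 2.7% had a ratio to the diptericin that separated the groups. Gambicin to diptericin (0.863 to 1.46 at 10 µM and 0.330 to 1.27 at 0 µM heme) and AAEL003832 to AAEL003857 (0.173 to 0.207 at 10 µM and 0.0873 to 0.472 at 0 µM heme) did overlap.

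**Figure D3:**
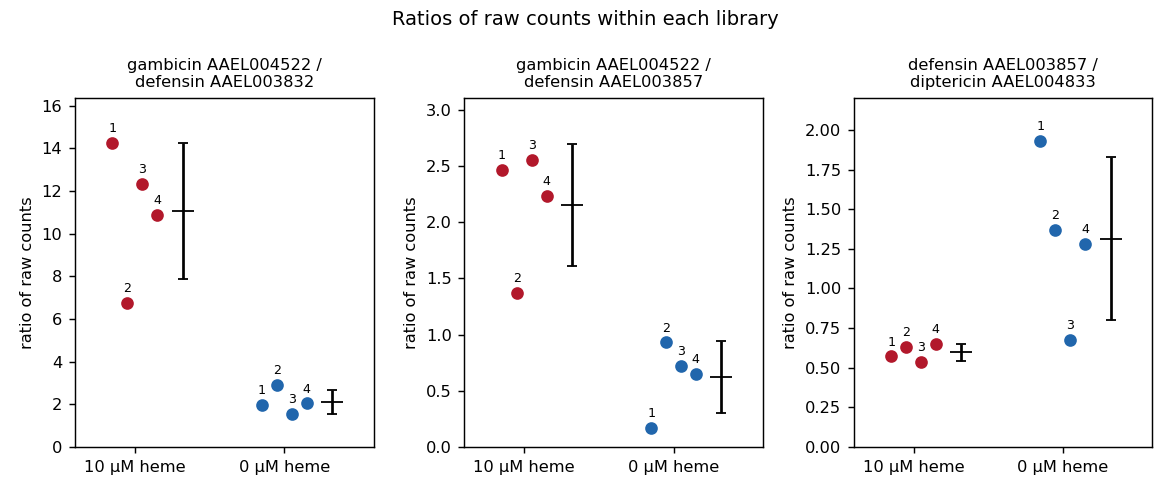
Ratios of raw counts between antimicrobial peptide genes within each library (y axis, no unit), with libraries numbered by replicate (10 µM heme red, 0 µM heme blue) and bars for the mean with SD over 4 libraries. The 10 µM libraries lie above all 0 µM libraries for the ratios of gambicin to both defensins (6.74 to 14.2 against 1.53 to 2.91 for AAEL003832) and below them for AAEL003857 to the diptericin (0.535 to 0.652 against 0.675 to 1.93).

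Other immune genes were the 20 named in the part of a supplementary table of the study that was available here. Of these 20, 18 passed the filter. Of these 18, 2 were called, both lower at 10 µM heme (edgeR exact test), where 4.63% of all genes tested were called and 2.42% were called lower. Over the alternative settings the count lay between 0, without replicate 1 of both groups, and 3. The median log2 fold change was −0.12, with a range of −1.07 to 0.23. The groups did not overlap for 2 of the 18 genes, a separation that 10.2% of all genes tested also had in either direction. The genes not tested were the leucine-rich immune protein LRIM1 (AAEL012086) and a fibrinogen-related gene (AAEL003294).

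None of the 4 signalling genes was called, and they included no IMD pathway gene and no NF-kappaB factor. The cytokine SPZ4 (AAEL007897), of the family whose members activate Toll receptors, had a log2 fold change of 0.23. Inside the cell below Toll act the adaptor MYD (AAEL007768), with a log2 fold change of −0.07, and the kinase PELLE (AAEL006571), with −0.12. The JAK-STAT receptor DOME (AAEL012471) had a log2 fold change of −0.01. The lowest unadjusted p of the signalling genes was 0.399, for PELLE (edgeR exact test).

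Of the 4 serine protease genes, which include an inhibitor, the clip-domain protease homologue CLIPA15 (AAEL002126) was called. It had 15, 10, 20 and 17 counts in 10 µM heme replicates 1 to 4, against 34, 31, 38 and 30 counts in 0 µM heme replicates 1 to 4, without overlap. Its log2 fold change was −1.07 (SE 0.26, adjusted p = 0.0186, edgeR exact test). The call was lost under 9 of 17 alternatives, among them leaving out 10 µM heme replicate 2 (adjusted p = 0.135), 10 µM heme replicate 4 (0.105), 0 µM heme replicate 1 (0.0852) or 0 µM heme replicate 3 (0.0951).

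Of the 9 recognition genes tested, the galectin GALE12 (AAEL009842), a sugar-binding lectin, was called. It was at 105, 115, 96.0 and 91.4 CPM in 10 µM heme replicates 1 to 4, against 167, 141, 137 and 156 CPM in 0 µM heme replicates 1 to 4, and the groups did not overlap. GALE12 had a log2 fold change of −0.56 (SE 0.10, adjusted p = 0.00195, edgeR exact test), a call that was lost when replicate 1 of both groups was left out (adjusted p = 0.0873). The lysozyme LYSC7B (AAEL015404), an enzyme that cleaves bacterial cell walls, averaged 14.3 CPM at 10 µM and 20.6 CPM at 0 µM heme and was not called (log2 fold change −0.52, adjusted p = 0.104).

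**Figure D4:**
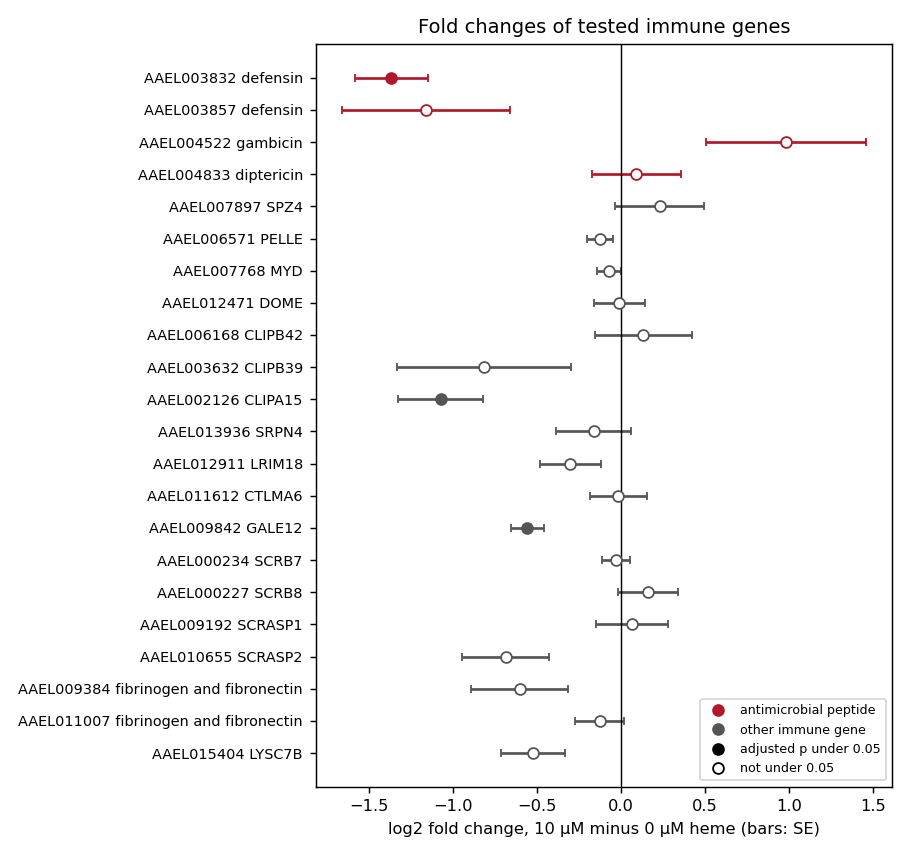
Log2 fold changes (10 µM minus 0 µM heme, x axis) of the 4 tested antimicrobial peptide genes (red) and 18 other immune genes (grey), with bars of 1 SE. Filled points have an adjusted p under 0.05. The defensins lie at −1.37 and −1.16 and gambicin at 0.98, whereas the 4 signalling genes lie between −0.12 and 0.23.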

How the data were processed

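RNA-seq libraries of cultured midguts, 4 with 10 µM heme and 4 with 0 µM heme, were grouped by their labels. The study calls them biological replicates. Per its methods and the submitters' processing notes, HISAT2 2.1.0 aligned the reads to AaegL5, SAMtools dropped alignments with low mapping quality, and bedtools 2.19.1 did the counting. The handling of strand and overlapping genes was not given in the sources used here. Values were deposited as unnormalized counts for each gene identifier, 1 column per library.

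The default filterByExpr left 11095 of 19712 genes. After TMM scaling these were tested by edgeR's exact test (edgeR 4.0.16, R 4.3.3) with Benjamini-Hochberg adjustment. The study's methods name this test and adjustment, but no low-count filter and no scaling. At an adjusted p of 0.05 the study reported fewer midgut genes than the 514 called here. CPM are counts scaled to 1000000 of the TMM-adjusted library total. Each SE is the standard error of the mean log2 CPM at 10 µM minus that at 0 µM heme, with a prior count of 2, because none comes with the exact test. Fold changes are 10 µM over 0 µM heme. Alternatives were the quasi-likelihood test without and with a replicate block, DESeq2 1.42.0, voom of limma 3.58.1 using sample quality weights, other scalings and filters, and leaving out libraries. Leaving out replicate 1 of both groups, and all alternatives for the sums and the immune list, were chosen after seeing the data. The scripts were tested on simulated data.

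Genes named were all 10 members, the 3 genes most like each called member, and list genes that were called. Other list genes were named after their values were seen. The member rule uses no measured value, but members and lists were chosen with earlier results of these data known. The RefSeq gene table held 0 of the identifiers, so no positions, lengths or sequences are given.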

Additional observations from a re-analysis of the deposited data

Results flagged for a closer look

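Of 35 groups of 4 values examined, 5 had a library far from the other 3 of its group by Dixon's criterion (a gap to the nearest library, as a share of the range, above the critical value for 4 samples), where chance gives about 1.75. In 3 of them 10 µM heme replicate 1 was the highest library: the defensin AAEL003832 at 0.990 CPM (gap 0.964), the defensin AAEL003857 at 5.72 CPM (gap 0.953) and the defensin sum at 6.71 CPM (gap 0.954). The sum consists mostly of AAEL003857, so these are not separate observations. That library has the lowest TMM factor, 0.848. Relative to library totals alone, AAEL003832 was at 0.840 CPM in it, beside 0.757, 0.712 and 0.790 CPM in 10 µM heme replicates 2 to 4, and AAEL003857 was still highest in it, at 4.85 CPM beside 3.73, 3.44 and 3.85 CPM.

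The other 2 were count ratios. The ratio of AAEL003832 to AAEL003857 was lowest in 10 µM heme replicate 1, at 0.173 (gap 0.882). The ratio of gambicin to the diptericin was lowest in 10 µM heme replicate 2, at 0.863 (gap 0.849).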

How the results depend on the processing

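The calls rest on 4 libraries a group, and those of AAEL003832 and CLIPA15 also on low counts. Of the antimicrobial peptide genes, 1 was called; 2 were called with DESeq2 and with library totals (AAEL003857 added), and 1 to 2 when single libraries were left out. AAEL003832 was called, with the same sign, under all 18 alternatives. The diptericin reversed with library totals (−0.0154) and without 10 µM heme replicate 1 (−0.14; −0.14 to 0.29 over the single libraries left out). All genes called numbered 514, against 316 in the quasi-likelihood test and 333 to 549 with single libraries left out (333 without 10 µM heme replicate 3). Of the immune list, 2 genes were called, and 1 with the quasi-likelihood test, voom, no filter, the CPM filter or without 0 µM heme replicate 1 and 10 µM heme replicate 2; single libraries left out gave 1 to 3. Without replicate 1 of both groups the count was 0 in the edgeR exact test, with 3 genes at an unadjusted p under 0.05. Deviations of samples of the same replicate number had correlations of 0.515, 0.0702, 0.0616 and 0.157 for replicates 1 to 4. These were over 0.1 for 2 of 4 numbers, so the numbers were not taken as pairs, although replicate 1 of both groups deviated together. With a replicate block, 725 genes were called in the quasi-likelihood test, among them 1 antimicrobial peptide gene (AAEL003832, adjusted p = 0.0181) and 2 list genes, and AAEL003857 had a log2 fold change of −0.99 (adjusted p = 0.0581). AAEL003841 and the attacin had too few counts for a difference to be detectable.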
